A study of Mus musculus with 6 samples.

Results

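SF3A and SF3B are protein complexes of the U2 small nuclear ribonucleoprotein (U2 snRNP). Their 10 genes, Sf3a1, Sf3a2 and Sf3a3 for SF3A and Sf3b1, Sf3b2, Sf3b3, Sf3b4, Sf3b5, Sf3b6 and Phf5a for SF3B, were selected by symbol through the GENCODE M21 annotation of the mouse genome (GRCm38). All 10 were found among the 35865 genes with values, and none was left out by the filter on low counts. Polyadenylated RNA from hippocampus of 3 WT and 3 Prmt9 KO female mice of the B6J strain, aged 2 weeks, had been sequenced. Prmt9 encodes an arginine methyltransferase, and the SF3B subunit SF3B2 is its known substrate. In the KO mice exon 5 of Prmt9 had been floxed and then removed in the germline with a CMV-Cre line, so that the deletion was not limited to a brain region or cell type, and the WT mice were littermates. The tissue was whole hippocampus, in which fewer cells of a type and less RNA per cell cannot be told apart.

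U2 snRNP recognizes the branch point of an intron, the adenosine that attacks the 5′ splice site in the first step of splicing. SF3B1, the largest subunit, encloses the branch helix together with PHF5A, SF3B6 contacts the branch region, and SF3B2 and SF3B4 bind the pre-mRNA upstream of it. SF3A joins SF3B to the rest of U2 snRNP, and SF3B, but not SF3A, is shared with the U11/U12 particle of the minor spliceosome.

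The stretch of Sf3b2 that carries the methylated arginine is shown first, since it ties the deleted enzyme to the complex. The arginine codon was found by translating the coding sequence of ENSMUST00000025774 and matching the residues around the site. It is codon 491, in exon 12, at chr19:5286294-5286296 on the reverse strand (GRCm38). The window of 27 bases, chr19:5286282-5286308, was read from the annotated transcript, and the capitals mark the codon.

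Sf3b2 codon 491: tggtgttttaagCGCaagtaccttcaa

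Of the 8 annotated Sf3b2 transcripts, 2 hold this codon. In TPM (a level scaled for transcript length and library size) they made up 85.69% to 88.15% of Sf3b2 in the 6 mice. Annotated transcripts with the codon thus held most Sf3b2 TPM in every mouse, WT and KO. Reads over the codon itself were not examined.

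The members also have transcripts annotated as retaining an intron, and the 3′ ends of the introns behind the most abundant of these are printed because the 3′ end holds the branch region that the complex itself binds. Each line gives the last 100 bases of the intron present in the transcript (63 for Sf3b6, all that its transcript holds), with the terminal AG in capitals. They lie in GRCm38 at chr11:4177971-4178070 (Sf3a1, forward strand), chr1:55014563-55014662 (Sf3b1, reverse), chr19:5283948-5284047 (Sf3b2, reverse) and chr12:4826695-4826757 (Sf3b6, forward).

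Sf3a1 intron 12: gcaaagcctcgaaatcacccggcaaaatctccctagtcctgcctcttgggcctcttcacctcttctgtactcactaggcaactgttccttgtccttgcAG
Sf3b1 intron 4: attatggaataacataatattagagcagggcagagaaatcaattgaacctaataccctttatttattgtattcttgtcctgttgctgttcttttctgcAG
Sf3b2 intron 13: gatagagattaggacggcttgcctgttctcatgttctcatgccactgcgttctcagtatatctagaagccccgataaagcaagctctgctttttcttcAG
Sf3b6 intron 2: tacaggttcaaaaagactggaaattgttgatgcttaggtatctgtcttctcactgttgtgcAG

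All 4 end in AG, and of the 30 bases before it 20 were pyrimidines in Sf3a1, Sf3b2 and Sf3b6 and 24 in Sf3b1.

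All 10 genes were expressed in every mouse, and none was called changed by the deletion. Sf3b2, the gene of the PRMT9 substrate, had the highest mean level in WT and the difference between genotypes with the smallest p, with lower normalized counts in every KO mouse. Sf3b4 was also lower and Sf3b3 higher in every KO mouse, while the members with the shortest coding sequences followed the mouse number and not the genotype. The level of Prmt9 itself was 11.8, 15.2 and 14.96 TPM in WT and 3.93, 4.61 and 4.67 TPM in KO mice. Its log2 fold change was −1.71 (SE 0.10), with an adjusted p of 0.0327 in edgeR and of 1.42e-60 in DESeq2, so that at the limit of 0.01 used here edgeR did not call Prmt9 and DESeq2 did.

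Total estimated counts were 194098391 to 286771677 per mouse, and a member had 4924 to 84038 counts in a mouse. The mice numbered 1 stood apart: the first principal component (67.4% of the variance) placed WT 1 at 109.95, KO 1 at 30.54 and the other 4 mice between −37.56 and −31.3. In WT 1, 37.4% of the annotated transcripts had no count, against 22.8% to 24.8% in the other mice. The 6 oligodendrocyte markers summed to 2156 and 1127.3 TPM in WT 1 and KO 1 and to 8226 to 12003.6 TPM in the other mice, and the 8 excitatory neuron markers to 1811.8 and 1915.8 against 2933.9 to 3117.2 TPM. Much of the excitatory neuron sum was Camk2a, at 776 and 816 TPM in WT 1 and KO 1 against 1640 to 1704 TPM. Each of the 8 except Neurod6 was lower in both mice numbered 1 than in every other mouse. Neurod6 was at 122.9 and 147.5 TPM in WT 1 and KO 1 against 114.4 to 131.6 TPM. The choroid plexus markers ranged from 612 to 7271.2 TPM over all mice. None of the genes in these lists was at 0. Of the 5 blood genes, all had a log2 fold change below 0 in KO. An unadjusted p below 0.05 (edgeR quasi-likelihood test) was found in 2, where 1.24% of all genes had one. Their sums were 2553.5 to 6333.9 TPM in WT and 1036.3 to 3275.5 TPM in KO. The blood genes largely rose and fell together over the mice and are not independent. The part of these differences in the results below was not tested beyond the values without the mice concerned.

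In WT the mean gene TPM fell in the order Sf3b2 (148), Sf3b6 (106), Sf3b1 (95.9), Phf5a (51.0), Sf3b4 (41.7), Sf3b3 (38.6), Sf3a1 (33.2), Sf3a3 (30.1), Sf3a2 (29.2) and Sf3b5 (15.9). Between neighbours in this order, the WT ranges were separate only from Sf3b1 to Phf5a and from Phf5a to Sf3b4. All other neighbours overlapped. The 3 SF3A genes thus lay close together, between 23.4 and 36.6 TPM in every WT and KO mouse. The 7 SF3B genes spanned 12.1 to 165.9 TPM. This order is that of gene TPM, which sums all classes of transcript, and it is not the order of coding transcripts. In coding TPM alone, Phf5a was at 17.9 to 25.7 in WT and lay below Sf3b4, at 38.6 to 42.8.

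**Figure D1:**
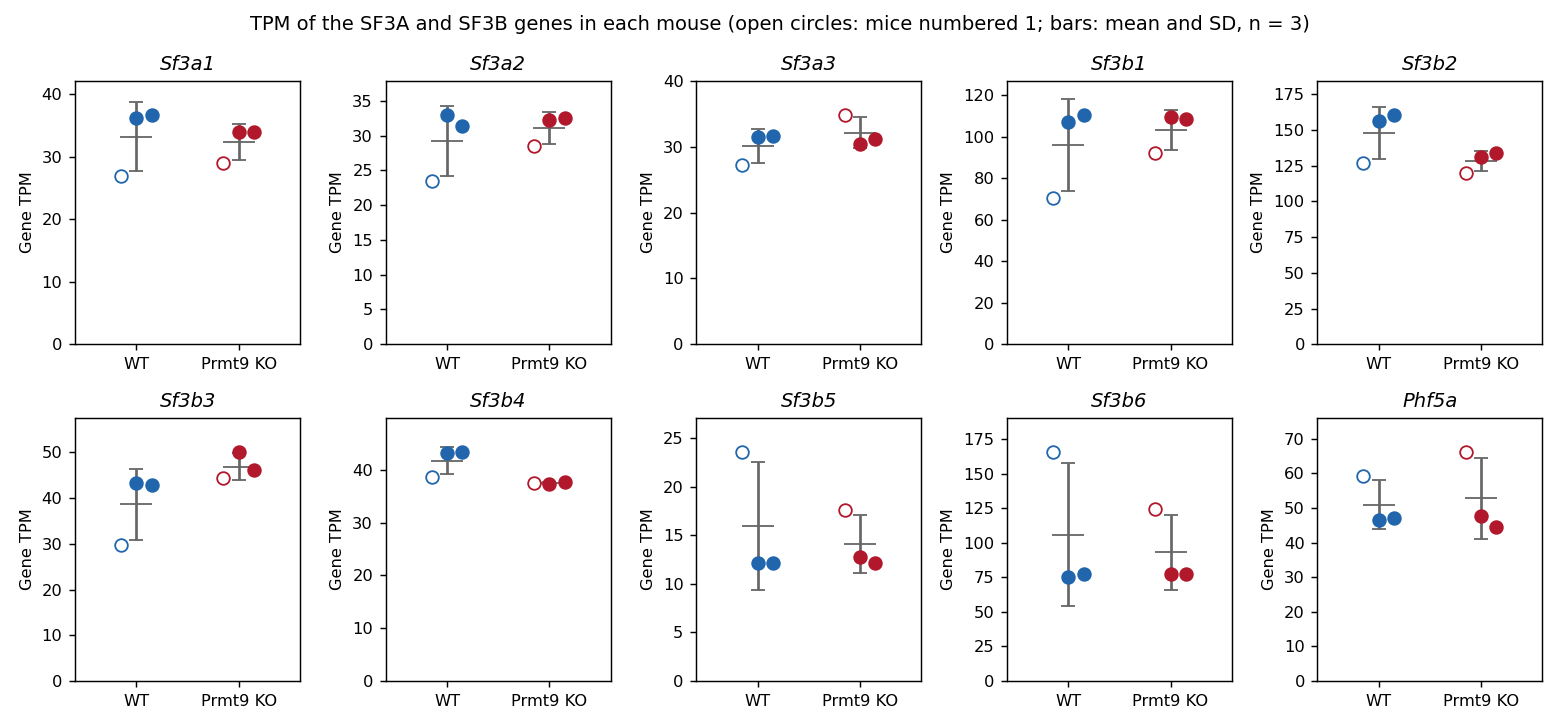
Gene TPM (y axis, from 0) of the 10 SF3A and SF3B genes in each WT and Prmt9 KO mouse (x axis), with open circles for the mice numbered 1 and bars for the mean and SD (n = 3). The groups stand apart only in Sf3b3, where every KO mouse is higher, and Sf3b4, where every KO mouse is lower.

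SF3B2 binds the pre-mRNA next to the branch region and carries the arginine that PRMT9 methylates. Gene TPM of Sf3b2 was 127, 156 and 160.4 in WT mice 1 to 3 and 120.1, 131 and 134 in KO mice 1 to 3. Between mice of the same number, KO was lower in 3 of 3 pairs, but the labels give no pairs, and another numbering could change this count. WT 1 lay among the KO mice, so that the groups overlapped (exact permutation test, two-sided, p = 0.3; 3 mice against 3 cannot give less than 0.1). In CPM (counts scaled for library size with TMM factors and not divided by length), Sf3b2 was 245, 232 and 234 in WT and 199, 194.2 and 192 in KO. Here every KO mouse was lower than every WT mouse, with means of 237 ± 6.88 and 195 ± 3.50 (SD, n = 3 each).

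The log2 fold change of Sf3b2 was −0.28 (SE 0.09), with an unadjusted p of 0.0167, which ranked 63 among 20315 genes, and an adjusted p of 1.0 (edgeR quasi-likelihood test, Benjamini-Hochberg). It was not called. Calls required an adjusted p under 0.01 together with a change of more than 1.5-fold, here and for all genes and transcripts. DESeq2 gave an adjusted p of 0.646. Leaving out any single mouse kept the log2 fold change between −0.30 and −0.25. The unadjusted p was then 0.0177 without WT 1, 0.0235 without KO 1 and 0.055 to 0.0681 without each other mouse (edgeR). With limma on log2(TPM + 1) the difference was −0.20 (unadjusted p = 0.201). Without both mice numbered 1 the log2 fold change in edgeR was −0.27 (SE 0.03). Its adjusted p of 0.0955 was the smallest of any member in any setting.

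Most Sf3b2 TPM came from the coding transcript ENSMUST00000025774, at 106, 129.7 and 130.5 TPM in WT and 100.03, 107 and 106 TPM in KO. WT 1 again lay within the KO range. Its log2 fold change was −0.29 (SE 0.11), with an unadjusted p of 0.0428, the only one below 0.05 among the member transcripts (edgeR, adjusted p = 1.0).

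**Figure D2:**
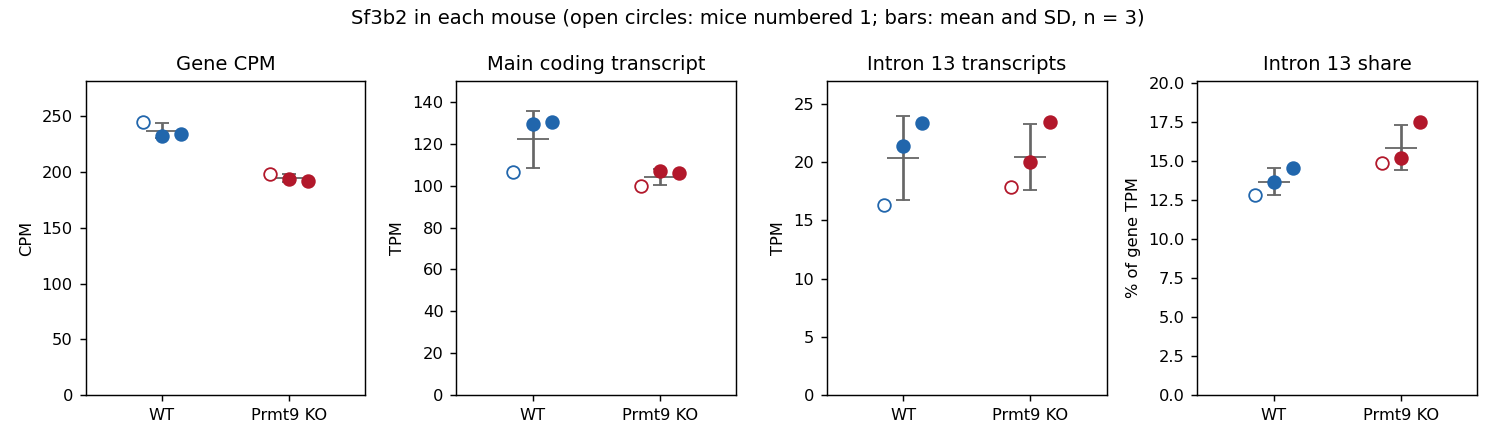
Sf3b2 in each mouse (x axis, genotype): gene CPM, TPM of the main coding transcript, summed TPM of the 2 transcripts that hold parts of intron 13, and their percentage of gene TPM (y axes, from 0), with open circles for the mice numbered 1 and bars for the mean and SD (n = 3). CPM of every KO mouse lies below every WT mouse, the intron 13 TPM of the groups overlaps, and its percentage is higher in every KO mouse.

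Of the other SF3B genes, Sf3b3 encodes a large scaffold of propeller domains. Its TPM was 29.7, 43.3 and 42.9 in WT and 44.3, 50.1 and 46.2 in KO. Every KO mouse was higher than every WT mouse, KO 1 by a small distance to WT 2 and 3 and all KO mice by a large distance to WT 1. The log2 fold change was 0.21 (SE 0.10, unadjusted p = 0.0649, adjusted p = 1.0, edgeR), 0.18 to 0.25 when single mice were left out. Sf3b3 overlaps Cog4 on the other strand over 188 bases, Cog4 held 45.1 to 47.2 TPM, and 1.6% of the 31-base words of the main Sf3b3 transcript occur in Cog4.

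Sf3b4, whose protein has RNA recognition motifs and binds upstream of the branch point, had 38.7, 43.2 and 43.4 TPM in WT and 37.5, 37.3 and 37.6 TPM in KO. Every KO mouse was lower, WT 1 by the smallest distance. The log2 fold change was −0.23 (unadjusted p = 0.074, adjusted p = 1.0, edgeR) and lay between −0.27 and −0.15 without single mice, the smallest without WT 1. Of the 31-base words of its coding transcript 55.0% occur in the pseudogene Gm7935, so that reads can be split between them, and Gm7935 had at most 0.09 TPM in a mouse.

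Sf3b1 encodes the HEAT-repeat subunit around the branch helix. Its TPM was 70.4, 107 and 110.2 in WT and 92.3, 109.5 and 108 in KO. Both mice numbered 1 were the lowest of their group, and the groups overlapped. The log2 fold change of 0.04 became −0.03 without WT 1 (adjusted p = 1.0 with all mice, edgeR).

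The members with the shortest coding sequences are Sf3b5 (258 bases), Phf5a (330 bases) and Sf3b6 (375 bases). The whole transcript of Sf3b5 is not short, at 3841 bases. SF3B5 is a small scaffold subunit, PHF5A a zinc-finger protein beside SF3B1, and SF3B6, also known as p14, the subunit near the branch adenosine. Sf3b6 was at 165.9, 75.0 and 77.5 TPM in WT and 124.7, 77.1 and 77.7 TPM in KO. Sf3b5 was at 23.6, 12.1 and 12.1 TPM in WT and 17.6, 12.7 and 12.1 TPM in KO. Phf5a was at 59.2, 46.5 and 47.2 TPM in WT and 66.1, 47.7 and 44.4 TPM in KO. In all 3 genes the mouse numbered 1 was the highest of its genotype, while the other 4 mice lay close together whatever their genotype.

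The log2 fold changes, −0.40 for Sf3b6, −0.31 for Sf3b5 and −0.01 for Phf5a, became 0.34, 0.29 and 0.28 without WT 1. Without both mice numbered 1 they were 0.02, 0.04 and −0.02. TPM of WT 1 divided by the mean of the other WT mice was 2.18 for Sf3b6, 1.95 for Sf3b5 and 1.26 for Phf5a, and 0.647 for Sf3b1, whose coding sequence is the longest at 3912 bases. In KO the same ratios were 1.61, 1.41, 1.44 and 0.847. The sign of the genotype difference in these 3 genes turned with the mice that entered the fit. Whether RNA quality or tissue composition moved with these values was not tested.

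**Figure D3:**
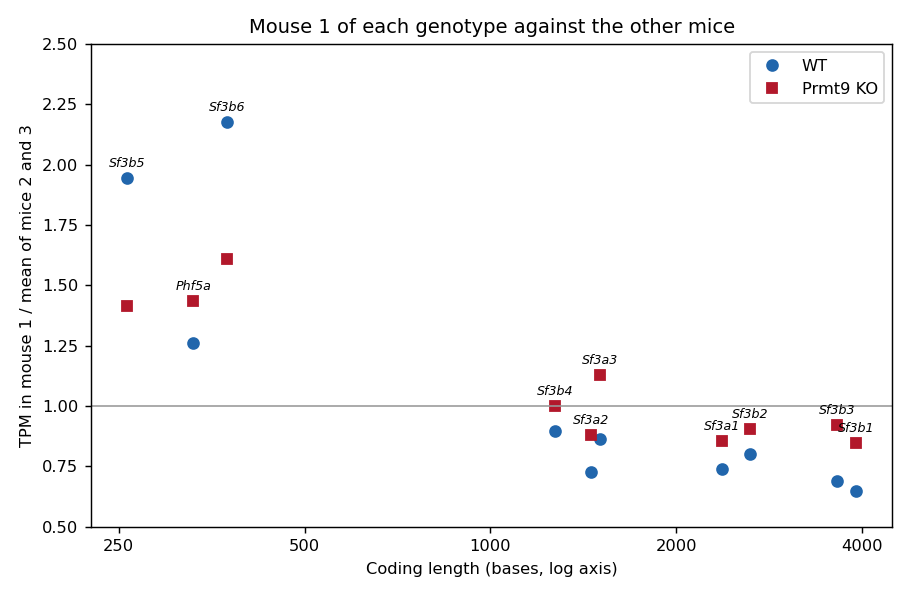
TPM in mouse 1 divided by the mean of mice 2 and 3 of the same genotype (y axis) against coding length in bases (x axis, log scale) for the 10 genes, with circles for WT and squares for Prmt9 KO. Sf3b5, Sf3b6 and Phf5a lie above 1 in both genotypes, from 1.26 to 2.18, and Sf3b1, the longest, lies at 0.647 and 0.847.

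The SF3A genes overlapped between genotypes in TPM. Sf3a1 encodes the subunit with a ubiquitin-like domain, Sf3a2 the zinc-finger subunit bound to it, and Sf3a3 the subunit that extends along U2 snRNA. Sf3a1 was at 26.9, 36.2 and 36.6 TPM in WT and 29.0, 34.0 and 34.0 TPM in KO. Sf3a2 was at 23.4, 32.9 and 31.3 TPM in WT and 28.5, 32.2 and 32.5 TPM in KO. Sf3a3 was at 27.2, 31.6 and 31.6 TPM in WT and 34.8, 30.5 and 31.3 TPM in KO. WT 1 was the lowest mouse in each of the 3 genes. KO 1 was the lowest KO mouse in Sf3a1 and Sf3a2 and the highest in Sf3a3.

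Log2 fold changes were −0.10, −0.08 and 0.04 for Sf3a1, Sf3a2 and Sf3a3 (adjusted p = 1.0 each, edgeR). In CPM every KO mouse was below every WT mouse for Sf3a1, at 70.8 to 71.5 against 73.8 to 77.4, and for Sf3a2, at 25.3 to 25.8 against 26.0 to 28.7. The sign for Sf3a2 turned on the log2(TPM + 1) scale, to 0.10. Sf3a2 shares 22.1% of the 31-base words of its longest coding transcript with other genes, chiefly the overlapping Plekhj1.

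Taken over the 10 genes, 0 were called by edgeR and 0 by DESeq2. In edgeR 0 of all 20315 genes were called, and in DESeq2 2 of 28250 genes or 0.00708% were. An unadjusted p below 0.05 was reached by 1 of 10 members with edgeR (Sf3b2), where 1.24% of all genes reached it, and by 1 with DESeq2, where 1.85% did. When mice of the same number were treated as pairs (a replicate block in edgeR's quasi-likelihood test), 3 members reached it, against 5.75% of all genes. These were Sf3b2, Sf3b3 and Sf3b4, with unadjusted p of 0.00246, 0.0206 and 0.00696 and an adjusted p of 0.79 each (edgeR). Since the labels give no litter or batch, pairing by number is an assumption. In TPM the groups did not overlap in 2 of 10, against 6.67% of all genes (1 lower, where 1.38% of all genes were lower, and 1 higher, where 5.28% were). With estimated counts scaled to library totals they did not overlap in 4 of 10, against 7.47% of all genes. In CPM they did not overlap in 5 of 10, against 7.01% of all genes. Of these, 4 were lower in every KO mouse (Sf3a1, Sf3a2, Sf3b2 and Sf3b4; 3.17% of all genes) and 1 was higher (Sf3b3; 3.83%). The median log2 fold change of the members was −0.09 and that of all genes −0.01.

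Without both mice numbered 1, 4 members had an unadjusted p below 0.05, but so had 16.4% of all genes in that fit, and 0 were called. TPM then did not overlap in 6 of 10 members, where it did not in 48.3% of all genes, and without WT 1 alone in 5 of 10, against 32.0%.

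**Figure D4:**
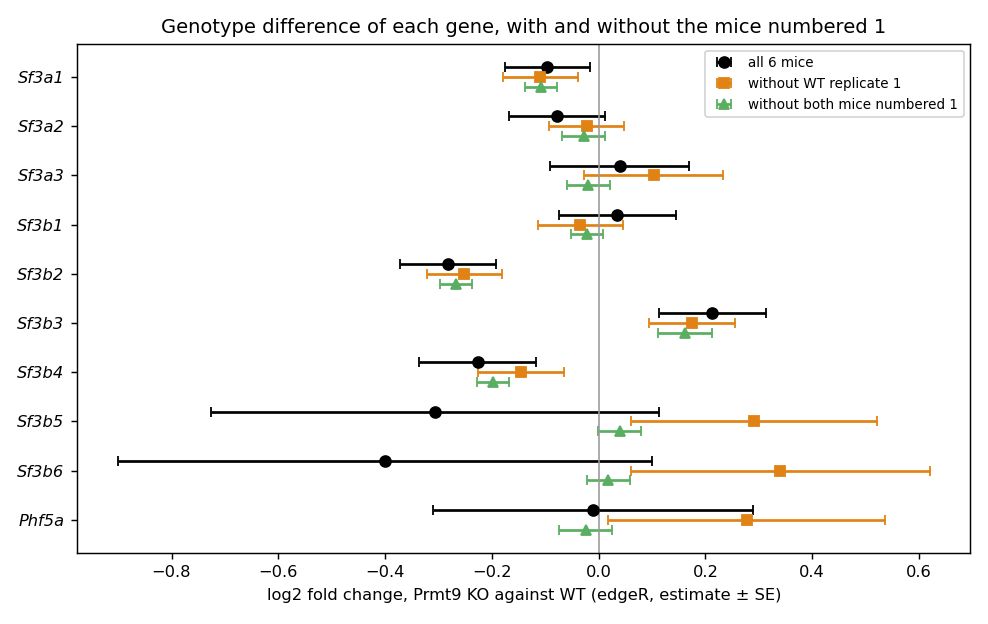
Log2 fold change of Prmt9 KO against WT (x axis, edgeR estimate with its SE as bars) for the 10 genes (y axis) with all 6 mice, without WT replicate 1 and without both mice numbered 1. Sf3b2 stays between −0.28 and −0.25 in the 3 fits, Sf3b3 stays above 0 and Sf3b4 below 0, and Sf3a3, Sf3b1, Sf3b5, Sf3b6 and Phf5a change sign between fits.

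Ratios between members, computed after their levels had been seen, do not depend on the scaling of a library. The TPM ratio of Sf3b2 to Sf3b3 was 4.27, 3.61 and 3.74 in WT and 2.71, 2.62 and 2.90 in KO. Every KO mouse was below every WT mouse, WT 1 included (exact permutation test, p = 0.1, the smallest possible). The ratio of Sf3b1 to Sf3b2 was 0.554, 0.686 and 0.687 in WT and 0.768, 0.835 and 0.809 in KO, and again the groups did not meet. Over all 45 pairs of members the groups stood apart in 12, against 5.94% of the pairs among the 9977 genes with a mean of at least 10 TPM. Of the 12 pairs, 5 held Sf3b2 and 5 held Sf3b3, with 1 pair holding both, and 3 held neither. Pairs that share a gene are not independent.

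The 10 genes have 43 annotated transcripts, all present in the files, and the annotation classes 14 as protein-coding, 21 as retained-intron, 7 as processed transcripts and 1 as a target of nonsense-mediated decay. The share of gene TPM from retained-intron transcripts was highest in Sf3b6, at 40.2% ± 6.49 in WT and 41.9% ± 2.02 in KO (SD, n = 3 each here and below). Sf3b1 followed with 22.2% ± 1.52 and 23.3% ± 2.56, then Sf3a1 with 16.8% ± 3.70 and 15.8% ± 1.76, and Sf3b2 with 14.9% ± 1.21 and 16.7% ± 1.86. Shares were 5.08% and 5.69% in Sf3b3, 4.27% and 4.51% in Sf3a2, and 0.969% and 0.643% in Sf3b4.

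The median share in WT over the 7046 genes with both kinds of transcript was 11.2%, so Sf3b6, Sf3b1, Sf3a1 and Sf3b2 lay above it, at percentiles from 58.6 to 89.0, and Sf3b3, Sf3a2 and Sf3b4 below it. Groups overlapped in all 7 members, against 8.00% of the 7046 genes in which they did not. In shares of the estimated counts they did not overlap in 2 of 7, Sf3b2 and Sf3b3, both higher in KO, against 7.41% of all genes. In limma on the log2 ratio of retained-intron to coding TPM, 0 of the 7 members and 0 of all genes were called, 0 members had an unadjusted p below 0.05 against 1.90% of all genes, and the differences ran from −0.33 (SE 0.44) in Sf3b4 to 0.19 (SE 0.20) in Sf3b2. Their median was 0.08, and that of all genes 0.06.

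**Figure D5:**
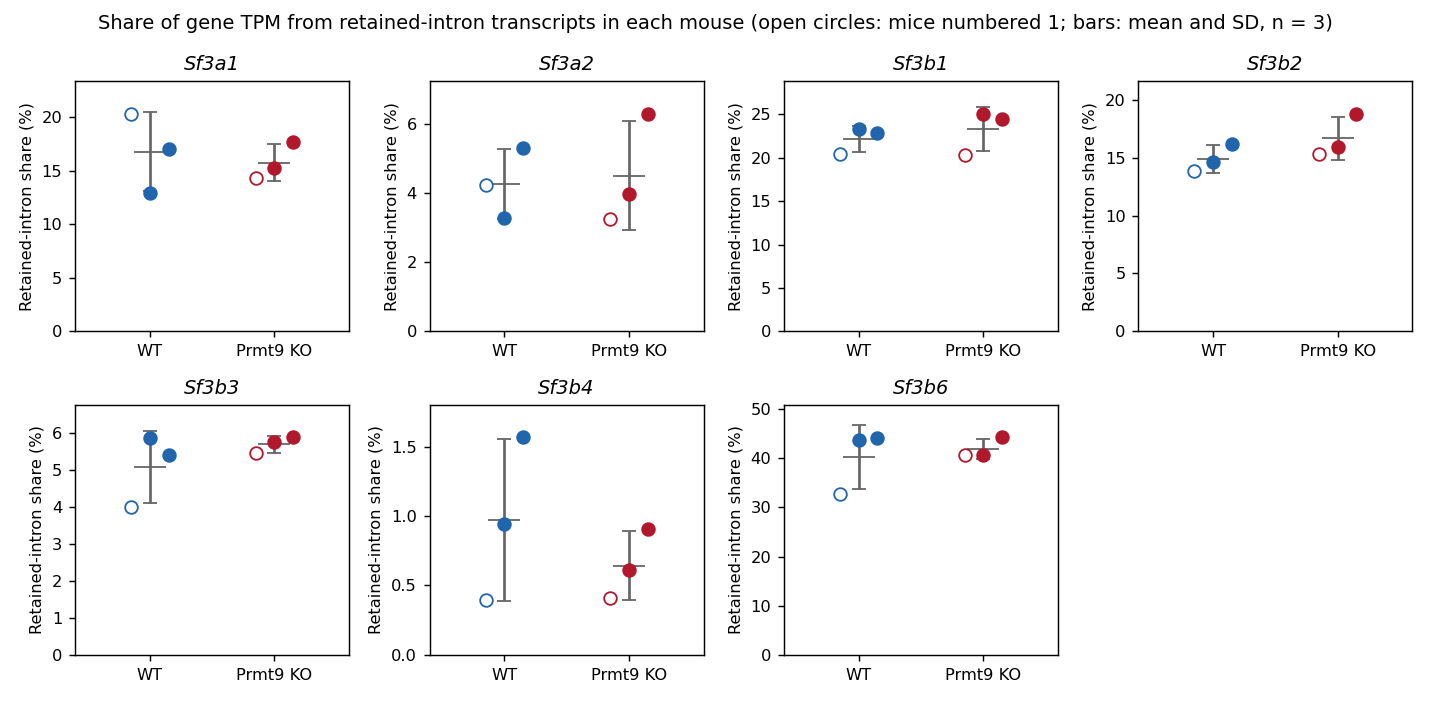
Percentage of gene TPM from retained-intron transcripts (y axis, from 0) in each WT and Prmt9 KO mouse (x axis) for the 7 members with such transcripts, with open circles for the mice numbered 1 and bars for the mean and SD (n = 3). The genotypes overlap in all 7, and Sf3b6 reaches the highest shares, 32.7% to 44.2%.

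The name of the class says little about how much of an intron is covered. Of the 21 retained-intron transcripts, 4 span a whole intron of the main coding transcript, and of the 10 with a mean of at least 1 TPM, 2 do. These are ENSMUST00000133095 of Sf3a1, which holds all 450 bases of intron 12 and had a mean of 4.72 TPM, and ENSMUST00000187500 of Sf3b1, which holds all 1813 bases of intron 4 and had a mean of 14.7 TPM. Both introns begin with GT and end with AG. The Sf3b6 transcript ENSMUST00000218650, at 29.96 to 53.6 TPM, holds only 63 of the 6045 bases of intron 2, and 14.8% of its 31-base words occur in no other transcript. The high share of Sf3b6 thus rested on a transcript of 455 bases, most of whose sequence occurs in other Sf3b6 transcripts. The main coding transcript has 1180 bases, and 34.5% of its 31-base words occur in no other transcript.

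In Sf3b1, ENSMUST00000187500 was at 9.07, 17.2 and 17.0 TPM in WT and 10.6, 17.6 and 17.0 TPM in KO. Both mice numbered 1 were low, and the genotypes overlapped. The only decay target among the members is Sf3b1 transcript ENSMUST00000191303, at 3.18% ± 0.41 of gene TPM in WT and 2.97% ± 0.24 in KO. Its log2 ratio to coding TPM differed by −0.08 (unadjusted p = 0.78, where 3.09% of all genes had one below 0.05, adjusted p = 0.996, limma). Phf5a has no retained-intron transcript, and its processed transcripts made up 59.3% ± 2.45 of gene TPM in WT and 58.4% ± 4.23 in KO.

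In Sf3b2, both transcripts that hold parts of intron 13 (627 bases) were summed, a choice made after their values were seen. ENSMUST00000235368 holds 460 bases from the donor side and ENSMUST00000237781 holds 461 bases up to the acceptor printed above. Together they were at 16.3, 21.4 and 23.4 TPM in WT and 17.9, 19.998 and 23.5 TPM in KO, and the groups overlapped. As a share of Sf3b2 TPM they were at 12.8%, 13.7% and 14.6% in WT and 14.9%, 15.2% and 17.5% in KO. Every KO mouse was higher, KO 1 by a small distance to WT 3 (exact permutation test, p = 0.1, the smallest possible). In estimated counts the shares were 6.76%, 6.84% and 7.34% in WT and 7.76%, 7.71% and 9.01% in KO, again with every KO mouse higher. The summed TPM of both transcripts was 20.3 ± 3.63 in WT and 20.4 ± 2.83 in KO, and the coding TPM of Sf3b2 beside it was 126 ± 14.1 and 107 ± 4.57. With all 6 retained-intron transcripts of Sf3b2 the TPM shares overlapped, at 13.8% to 16.2% in WT and 15.3% to 18.8% in KO. Over 7046 genes, retained-intron shares of whole genes did not overlap in 8.00% in TPM and in 7.41% in estimated counts.

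Of the 43 member transcripts, 40 passed the filter on low counts, 0 were called by edgeR (0 by DESeq2, which called 0.110% of all transcripts), 1 had an unadjusted p below 0.05 where 1.61% of all transcripts did (2 with DESeq2, against 2.66%), and TPM did not overlap in 4 against 7.50% of all transcripts. These 4 are the main coding transcripts of Sf3b3 (higher) and Sf3b4 (lower), ENSMUST00000212515 of Sf3b3 (higher) and ENSMUST00000151049 of Sf3a3 (lower). The use of transcripts within a gene could be tested in 9 members. None was called (edgeR diffSpliceDGE with a Simes test, smallest adjusted p = 1.0, 0 with an unadjusted p below 0.05 against 1.73% of all genes), where 23 of 13560 genes or 0.170% were called.

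The other proteins around the 3′ splice site were followed in a list of 27 genes for U2 snRNP core proteins and factors that recruit U2. None was called by edgeR, which called 0 of all 20315 genes. An unadjusted p below 0.05 was reached by 0 of the 27, against 1.24% of all genes, a share at which 0 of so few says little. Log2 fold changes lay above 0 in 13 and below 0 in 14, with a median of −0.01. The highest were Ddx46, the helicase PRP5 that acts on U2 snRNP, at 0.14, and Rbm39, a U2AF-related protein, at 0.12. The lowest were the Sm proteins Snrpf at −0.27 and Snrpd2 at −0.24, which were at 0.28 and 0.45 without WT 1. Like Sf3b5, Sf3b6 and Phf5a, both were high in the mice numbered 1. Snrpd2 was at 128.8 and 106.8 TPM in WT 1 and KO 1 and between 57.6 and 61.5 TPM in the other mice.

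The use of transcripts could be tested in 26 of the 27 genes, and none was called with all 6 mice. Sf1, which encodes the branch point binding protein that U2 snRNP displaces, is named after its values were seen. Its adjusted p was 0.0952 with all mice and 0.0423 with the replicate block (edgeR diffSpliceDGE, Simes test). It was the only gene of the list to be called in another setting, with a term in the model for being numbered 1 (adjusted p = 0.000274, where 0.383% of all genes were called), without WT 1 (0.000742, where 1.04% were) and without both mice numbered 1 (1.58e-06, where 1.82% were). Without any other single mouse its adjusted p was 0.221 or higher, and its gene log2 fold change was 0.05 (SE 0.11). With all mice and a gene-level F test in diffSpliceDGE, Sf1 was not called. The unadjusted p was then 0.0465, against 0.000372 with the Simes test.

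For the 8 proteins of the U11/U12 particle, with which SF3B is shared, edgeR called 0, as it did among all 20315 genes. An unadjusted p below 0.05 was reached by 0 of the 8, against 1.24% of all genes, a share at which 0 of so few says little. The highest was Rnpc3, the 65K protein that bridges U11 and U12, at a log2 fold change of 0.39 (unadjusted p = 0.135), followed by Pdcd7 at 0.06. The lowest was Zmat5 at −0.25, which was at 0.37 without WT 1, followed by Snrnp48 and Snrnp35 at −0.06 each. Rnpc3 was at 12.1, 25.5 and 25.8 TPM in WT and 20.3, 32.9 and 34.0 TPM in KO. KO 1 lay below WT 2 and 3, and the groups overlapped. Transcript use was called in 0 of the 8 with all mice, where 0.170% of all genes were called. Without both mice numbered 1 it was called in 1, Snrnp48, where 1.82% of all genes were called. Snrnp48 was called in no other setting.

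Genes whose TPM followed that of Sf3b2 most closely over the 6 mice were sought among 9981 genes, by the root mean square difference of log2(TPM + 1) after subtracting each gene's mean. The nearest were Gcdh (0.025), a mitochondrial dehydrogenase, Lap3 (0.026), an aminopeptidase, Xbp1 (0.028), a transcription factor of the unfolded protein response, Creld2 (0.032), an endoplasmic reticulum protein, and Cactin (0.037), which takes part in splicing. Among the members, Sf3b4 ranked 72 and Sf3a1 ranked 257, whereas Sf3b1 ranked 3846 and Sf3b6 ranked 9455. The pattern includes the low value of WT 1 as well as the lower level of the KO mice.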

How the data were processed

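RNA-seq of 3 WT and 3 Prmt9 KO hippocampi (poly(A) RNA, stranded TruSeq libraries, paired-end reads) was analysed. The authors deposited estimated counts and TPM per transcript from kallisto (version 0.46.0 in the submitters' processing notes), with no further normalization of the estimated counts, and a gene table in TPM that the authors summed with tximport. Reads shared by isoforms are divided by kallisto's model, and whether it used strand is not given in the sources used here. Of 118783 transcripts, 116622 matched GENCODE M21 by identifier, and for all 10 members the summed TPM equalled the deposited gene table within 0.001.

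Estimated counts were summed per gene, rounded, and tested on all genes and on all transcripts with edgeR 4.0.16 (TMM, filterByExpr, quasi-likelihood test, R 4.3.3) and Benjamini-Hochberg adjustment. A call needed both an adjusted p under 0.01 and more than 1.5-fold change. The use of transcripts within a gene was tested with edgeR's diffSpliceDGE and called at an adjusted p under 0.01 alone. Retained-intron and decay TPM were divided by coding TPM per gene with 0.1 TPM added to both and tested with limma 3.58.1, in genes with at least 1 coding TPM in every mouse and a mean of at least 0.1 TPM in the numerator. Single values were compared by exact two-sided permutation tests. DESeq2 1.42.0, other scalings, filters and added constants, a batch term for the mice numbered 1, a replicate block and leaving out each mouse were the alternatives. The steps were tested on simulated data. Deviations from the group means correlated at 0.553, 0.415 and 0.383 between WT and KO mice of the same number, each over 0.1. The replicate block was therefore run as an alternative, and the main fits used no pairs. Deviations of 3 mice from their own mean are tied. When the mice numbered 1 deviate together, the others correlate as well, so these values cannot show pairs among mice 2 and 3. Only the mice numbered 1 correlated better with each other than with all mice of other numbers. WT 2 with KO 3 gave 0.417 and WT 3 with KO 2 gave 0.394, and the labels give no litter or batch.

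Named were all 10 members, their transcripts with a mean of at least 1 TPM or the highest of their class, Prmt9, the 5 genes nearest to Sf3b2, and from both splicing lists the called genes or else the 2 highest and 2 lowest. The members and lists were chosen with earlier results of these data known. The tissue markers other than those given (astrocytes, microglia, endothelial cells, thalamus, striatum) had 0 genes called by edgeR. Since edgeR called 0 of all 20315 genes, this count cannot speak to tissue composition. Total estimated counts were 194098391 to 286771677 per mouse.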

Additional observations from a re-analysis of the deposited data

How the results depend on the processing

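No member gene, transcript, usage or ratio was called in any of the 68 fits and settings run, the replicate block included (0 calls with it; adjusted p of Sf3b2 = 0.79 in edgeR). Of 18 fitted differences of members, 7 kept their sign throughout: at the gene level those of Sf3a1, Sf3b2, Sf3b3 and Sf3b4, and in the retained-intron ratio those of Sf3b1, Sf3b2 and Sf3b3. The others turned as follows. On log2(TPM + 1) with limma, Sf3a2 was at 0.10 and Phf5a at 0.036. Without both mice numbered 1, a setting added after the data were seen, the gene log2 fold change was −0.019 for Sf3a3, −0.021 for Sf3b1, 0.040 for Sf3b5 and 0.018 for Sf3b6, and the retained-intron ratio difference was 0.16 for Sf3a1 and −0.082 for Sf3b6. With 1 TPM added, that of Sf3a2 was −0.0002. Leaving out single mice gave gene log2 fold changes of −0.075 to 0.10 for Sf3a3, −0.034 to 0.083 for Sf3b1, −0.55 to 0.29 for Sf3b5, −0.71 to 0.34 for Sf3b6 and −0.30 to 0.28 for Phf5a. It gave retained-intron differences of −0.26 to 0.068 for Sf3a1, −0.22 to 0.24 for Sf3a2, −0.72 to 0.015 for Sf3b4 and −0.12 to 0.24 for Sf3b6, and a decay ratio difference of −0.15 to 0.022 for Sf3b1. The cause was not tested.

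Members whose gene TPM did not overlap between genotypes numbered 2 of 10, 4 with estimated counts scaled to library totals (7.47% of all genes), 5 with CPM and TMM factors, 2 to 5 without single mice (5 without WT replicate 1, when 32.0% of all genes did not overlap) and 6 without the mice numbered 1. For the retained-intron share the number was 0 of 7, 2 with estimated counts (Sf3b2 and Sf3b3, against 7.41% of all genes), 0 to 1 without single mice and 2 without the mice numbered 1 (Sf3b1 and Sf3b4, against 42.8%). The transcript values are limited by how kallisto divides reads among isoforms, and 3 mice against 3 cannot reach p = 0.05 in an exact test.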
